A study of Homo sapiens with 6 samples.

Results

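Of the 10 Wnt pathway genes described here, 9 were measured by 21 probe sets among the 22277 on the arrays. The genes were DKK1, DKK3, WNT5A, FZD2, FZD6, FZD7, LRP6, CTNNB1, TCF7L2 and AXIN2. Each probe set was taken because the annotation names 1 of these genes and no other for it. No probe set was annotated to AXIN2, a scaffold of the complex that destroys beta-catenin, and it is not analysed here. RNA came from PC3, a line of human prostate cancer cells that was derived from a metastasis in bone. In the labels, the 3 arrays of the PSMA group hold PC3 cells with a genotype of PSMA overexpression, transfected with the plasmid pLNCX-PSMA. Those of the control group (3 arrays) hold PC3 cells with a wildtype genotype and a source that names the vector only. The protocol describes FuGENE 6 transfection and puromycin selection for both lines. PSMA is prostate-specific membrane antigen, the product of FOLH1. Whether a line was 1 clone or a pool, and whether the arrays of a group came from separate cultures, is not said in the labels. The p-values therefore measure only the spread between these arrays, which may be technical.

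In the canonical branch of the pathway, a secreted Wnt ligand binds a Frizzled receptor together with a co-receptor, LRP5 or LRP6. This stops the destruction complex from degrading beta-catenin, which then enters the nucleus and activates genes with TCF and LEF factors. DKK1 is a secreted inhibitor that occupies the co-receptor. In prostate cancer it is known as an inhibitor of bone formation in metastases, and PC3 is a line known to make it. WNT5A mostly signals through branches that do not use beta-catenin.

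DKK1 is itself known as a target of beta-catenin, which is why its promoter is shown beside that of CTNNB1, the gene of beta-catenin. RefSeq promoter sequence on GRCh38.p14 was given for 4 of the 10 genes, at 7 start sites. Motifs of TCF and LEF factors were searched on both strands in 4 forms, which cannot overlap each other on 1 strand. The form CTTTGAA was searched first. The next was CTTTGAT. Another was CTTTGTA. The last form was CTTTGTT. The 250 bases upstream of the start of DKK1 (chr10:52314031-52314280, plus strand) held 2 matches, in capitals, at 95 to 89 and 76 to 70 bases before the start. The 250 bases upstream of CTNNB1 (chr3:41199255-41199504, plus strand) held 0. Both starts of WNT5A held 0, and 1 of the 3 starts of TCF7L2 held 1.
DKK1: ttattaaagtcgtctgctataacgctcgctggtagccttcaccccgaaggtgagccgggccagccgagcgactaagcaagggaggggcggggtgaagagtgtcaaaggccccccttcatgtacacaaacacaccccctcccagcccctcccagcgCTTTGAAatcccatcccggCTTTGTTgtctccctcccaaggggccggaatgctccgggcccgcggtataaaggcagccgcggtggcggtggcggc
CTNNB1: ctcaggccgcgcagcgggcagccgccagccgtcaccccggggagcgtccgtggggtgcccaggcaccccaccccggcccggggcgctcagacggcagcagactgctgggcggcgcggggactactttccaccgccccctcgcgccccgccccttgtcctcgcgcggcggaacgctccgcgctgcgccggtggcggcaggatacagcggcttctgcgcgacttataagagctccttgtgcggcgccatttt
At least 1 match occurred in 12% of the 35116 promoter windows of this length in the table, and at least 2 in 1.21%. A match describes these letters only.

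The check of the labels failed. On the brightest probe set annotated to FOLH1, shared with its near-identical paralog FOLH1B, signal was 8.58 to 15.1 on the arrays labelled PSMA, against 417.3 to 547.7 on those labelled control. The log2 difference was -5.30 (SE 0.197, limma adjusted p = 2.6e-07), opposite to the labels. The probe set annotated to FOLH1 alone went the same way by less, -1.11 (limma adjusted p = 1.49e-05). It read 24.4 to 32.0 on arrays labelled PSMA and 59.7 to 61.5 on arrays labelled control. The remaining FOLH1 probe sets, shared with FOLH1B, differed by -4.72 and -4.09. All FOLH1 probe sets passed the filter only through the control arrays. Every direction below therefore follows the labels as deposited, and "higher" or "rose" means higher where the FOLH1 signal was lower. Values are GCRMA intensities in arbitrary units, and their median over all arrays was 52.5. Arrays of 1 group correlated at 0.9976 to 0.9981 and arrays of different groups at 0.9874 to 0.9878 across probe sets, on the log2 scale. Of 7035 genes tested, 63.6% passed the threshold of an adjusted p of 0.05 (30.1% higher, 33.5% lower), so a call alone says little about any gene. All 6 epithelial and PC3 markers passed the filter on dim values, and 4 of them (KRT8, KRT18, EPCAM and CDH1) fell and 1 (VIM) rose. Their summed signal was 17342 to 17945 on arrays labelled PSMA, against 19861 to 20571 on arrays labelled control. Of markers of other cell types, 0 of 3 luminal, 0 of 5 leucocyte and 2 of 7 fibroblast and endothelial genes passed the filter, and neither of those 2 passed the test (limma adjusted p = 0.152 and 0.14). Below the filter, the fibroblast gene LUM read 5.02 to 7.32 on arrays labelled PSMA and 27.4 to 41.2 on arrays labelled control (log2 difference -2.49 with all probe sets kept). On arrays labelled PSMA these lists summed to 63.2 to 73.5, 75.7 to 87.9 and 215.4 to 234.6. On arrays labelled control the same lists, in the same order, summed to 65.4 to 67.7, 74.0 to 80.3 and 231.3 to 248.1. The part of these markers in the results was not tested. PC3 is known to lack CTNNA1, the gene of alpha-catenin, through a homozygous deletion. Its 4 probe sets, looked up after values were seen, read 6.08 to 21.5 on arrays labelled PSMA and 5.73 to 18.7 on arrays labelled control, so signal was low in both groups.

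Among the measured genes, the receptor genes FZD2 and FZD6, beta-catenin (CTNNB1) and the nuclear factor TCF7L2 rose, the receptor gene FZD7 fell, and DKK1 and the brightest WNT5A probe set did not pass. Testing covered 7 of the 9 measured genes, those with a probe set whose signal exceeded the overall median on 3 or more arrays. All 7 were above it on all 6 arrays. Of the 7, 4 rose and 1 fell, or 71.4% called, beside 63.6% of all genes. Their log2 differences ran from -0.41 to 0.70 with a median of 0.23, beside a median of -0.01 over all genes. None reached 2-fold, which 4.41% of all genes did among those past the threshold. By probe set, 13 of 21 were above the filter, 8 rose and 2 fell, or 76.9% called beside 60.6% of all probe sets (28.2% higher, 32.4% lower). Of the 21, 6 belong to TCF7L2, so this share counts 1 gene several times. Of the 10 probe sets called, 2 passed the filter only through the group with the higher signal, 1 for FZD7 and 1 for TCF7L2, so those had to differ.

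**Figure D1:**
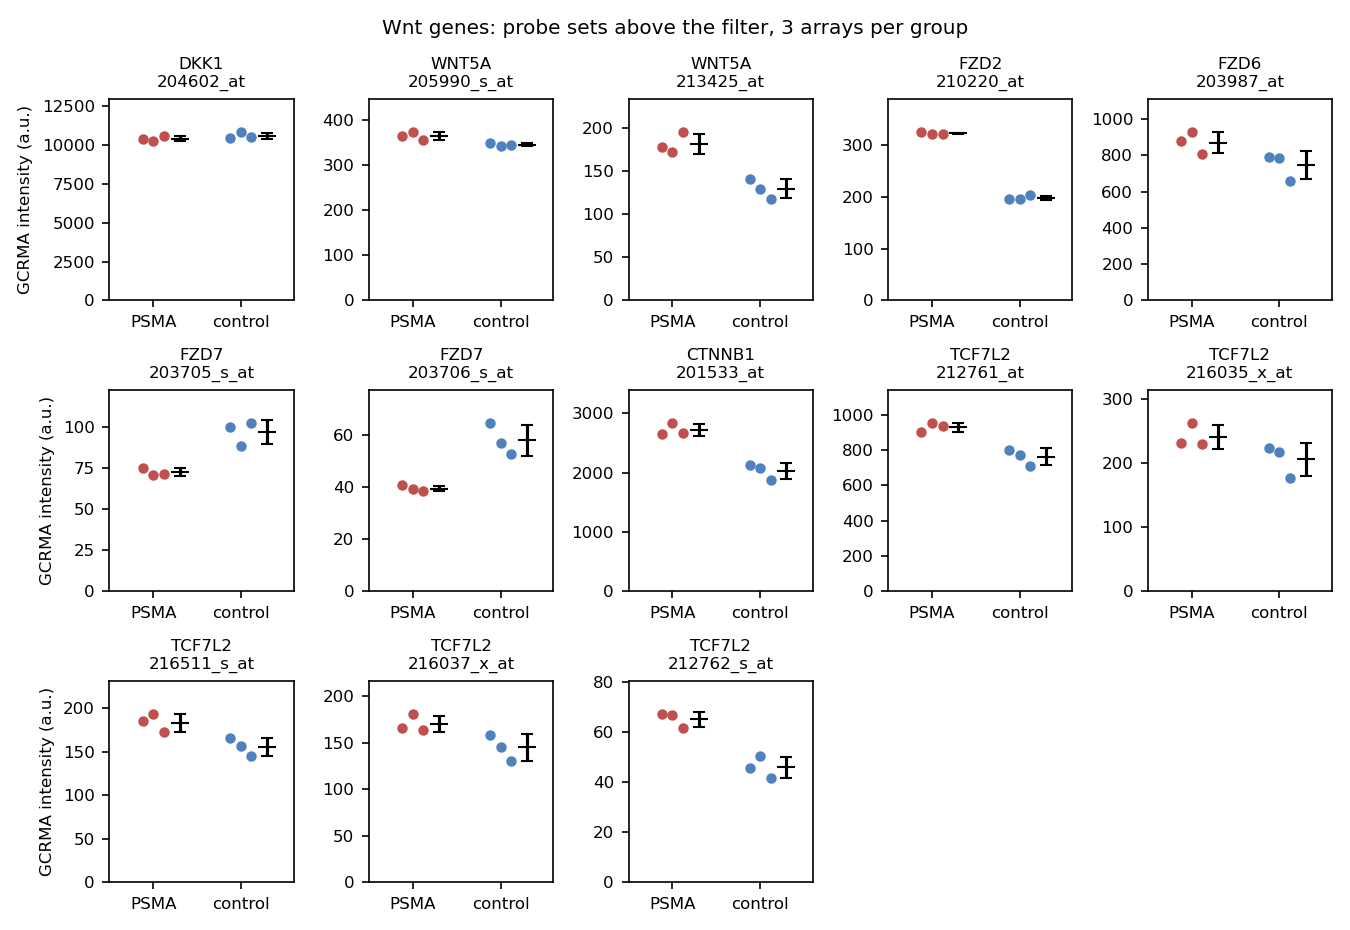
Intensity (arbitrary units, linear axis from 0) on each of the 13 probe sets of Wnt genes above the filter, with 3 arrays labelled PSMA at the left and 3 labelled control at the right of each panel. Points are arrays, and the black mark and bar are the mean and SD (n = 3). The groups overlap for DKK1 only.

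The ligand gene WNT5A gave different answers on its 2 probe sets. On the brighter one, the arrays labelled PSMA read 363.9, 371.6 and 354.2, and the arrays labelled control read 348.3, 341.1 and 343.7. The groups did not overlap, but the log2 difference was small at 0.08 (SE 0.0423, 95% interval -0.02 to 0.17, fit over probe sets). It did not pass (limma adjusted p = 0.149, or 0.134 in the fit over genes). On the other, the arrays labelled PSMA read 178.1, 172.7 and 195.0, and those labelled control read 140.5, 129.9 and 118.2. There WNT5A rose by 0.49 (SE 0.0738, limma adjusted p = 0.000553), or 1.41-fold. The interval on this probe set, 0.32 to 0.66, lay above that of the brighter one. When the probe sets of each gene were averaged, WNT5A rose by 0.28 (limma adjusted p = 0.000747). What sets the probe sets apart was not tested.

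FZD2, a Frizzled receptor that binds WNT5A among other ligands, had the largest difference of the 7 tested genes. It read 324.8, 322.3 and 322.8 on the arrays labelled PSMA, against 196.1, 196.8 and 203.2 on the arrays labelled control. The spread within each group was small beside the gap between them: the means were 323.3 ± 1.34 and 198.7 ± 3.93 (SD, n = 3 each). FZD2 rose 1.63-fold, a log2 difference of 0.70 (SE 0.0400, 95% interval 0.61 to 0.79, limma adjusted p = 1.59e-06). Over the 6 arrays, the tested genes with the profile nearest to FZD2 were ATP9A, PLAU and TPT1, out of 7028 compared. Their distances were 0.0637, 0.0676 and 0.0697 as Euclidean distance between log2 values centred on each gene's mean. ATP9A read 296.3 to 299.6 on arrays labelled PSMA and 179.5 to 182.9 on arrays labelled control.

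FZD6, a Frizzled receptor known for its part in planar cell polarity, differed only a little. Its signal was 877.9, 926.7 and 809.4 on arrays labelled PSMA, and 793.5, 787.6 and 657.0 on arrays labelled control. The lowest array labelled PSMA stood just above the highest labelled control, so the groups did not overlap by a narrow margin. FZD6 rose 1.17-fold (log2 difference 0.23, SE 0.0824, limma adjusted p = 0.0386). This call was lost without PSMA replicate 4 (adjusted p = 0.0914), without PSMA replicate 5 (0.125) or without control replicate 3 (0.0895, log2 difference 0.14), and with dim probe sets kept (0.0890).

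FZD7, a Frizzled receptor found in stem and progenitor cells, was the only one of the 7 tested genes that fell. Its brighter probe set read 75.4, 70.8 and 71.6 on arrays labelled PSMA, against 100.2, 88.5 and 102.2 on arrays labelled control. FZD7 fell by 0.41 on the log2 scale (SE 0.0620, 95% interval -0.56 to -0.27, limma adjusted p = 0.000443), so signal was 1.33-fold lower. The second probe set read 40.7, 39.2 and 38.5 on arrays labelled PSMA and 64.4, 56.8 and 52.7 on arrays labelled control. It went the same way (log2 difference -0.55, SE 0.0728 in the fit over probe sets), having passed the filter only on the arrays labelled control.

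LRP6, the co-receptor that DKK1 binds, gave signal below the filter on both of its probe sets, between 24.9 and 49.5 on all arrays. The brighter one read 44.5, 48.6 and 45.5 on arrays labelled PSMA and 49.5, 46.7 and 47.7 on arrays labelled control, and the groups overlapped. In a fit with all probe sets kept, in which 32.0% passed (15.9% higher, 16.1% lower), its log2 difference was -0.06 (95% interval -0.19 to 0.08, limma adjusted p = 0.538). The dimmer one read 27.5, 26.1 and 26.8 on arrays labelled PSMA and 25.9, 25.1 and 24.9 on arrays labelled control. These groups did not overlap, by a narrow margin, with a difference of 0.08 (95% interval -0.04 to 0.21, limma adjusted p = 0.289). Neither interval reached a 1.5-fold change in signal, which at this dim level does not bound the change in LRP6 RNA.

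DKK1 gave strong signal in both groups. It read 10390.2, 10274 and 10540.4 on the arrays labelled PSMA, and 10426, 10789 and 10474 on the arrays labelled control. The values overlapped, and the log2 difference of -0.02 (SE 0.0404, limma adjusted p = 0.653) had a 95% interval of -0.11 to 0.07. The highest value of any probe set on these arrays was 17455. The related gene DKK3, which encodes a secreted Dickkopf protein that is often silenced in cancers, read only 4.87 to 10.2 on all 5 of its probe sets. On the brightest of the 5 it read 8.94, 7.52 and 10.2 on arrays labelled PSMA and 7.39, 6.75 and 6.92 on arrays labelled control. Those values did not overlap. Over all probe sets, dim and bright, 44.9% did not overlap, beside 67.3% of those above the filter, so the share among dim ones was lower. The DKK3 difference of 0.33 did not pass with all probe sets kept (SE 0.109, limma adjusted p = 0.0551). The other 4 had differences from -0.05 to 0.10. All DKK3 values lay under the 25th percentile of all values (13).

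CTNNB1, whose product beta-catenin carries the signal into the nucleus and also links cadherins to the cytoskeleton, rose 1.33-fold. It read 2643, 2826 and 2664 on arrays labelled PSMA, against 2134, 2083 and 1882 on arrays labelled control. The lowest array labelled PSMA was well above the highest labelled control. The log2 difference was 0.42 (SE 0.0582, 95% interval 0.28 to 0.55, limma adjusted p = 0.000295). The protein level of beta-catenin is set mainly by its degradation, which arrays do not measure.

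TCF7L2, a DNA-binding partner of beta-catenin, had 6 probe sets, and on all 6 each array labelled PSMA lay above each array labelled control. On the brightest, signal was 902.6, 950.8 and 935.8 on arrays labelled PSMA and 803.5, 774.5 and 710.5 on arrays labelled control. TCF7L2 rose 1.22-fold there (log2 difference 0.29, SE 0.0549, 95% interval 0.16 to 0.41, limma adjusted p = 0.0018). Of the other 5, 3 passed among the tested probe sets (log2 differences 0.23, 0.24 and 0.51), and 1 had a difference of 0.23 that did not (limma adjusted p = 0.0700). The dimmest was below the filter and differed by 0.41 with all probe sets kept (limma adjusted p = 0.0411). Probe sets of 1 gene read the same RNA and are not independent. The probe set with the difference of 0.51 read 67.2, 66.8 and 61.6 on arrays labelled PSMA and 45.7, 50.5 and 41.8 on arrays labelled control, and passed the filter only on the arrays labelled PSMA. The probe set with 0.24 lost its call without PSMA replicate 5 (limma adjusted p = 0.0504). The tested one that passed with 0.23 lost it without PSMA replicate 5 (0.0928), control replicate 2 (0.0532) or control replicate 3 (0.0623), and with dim probe sets kept (0.0721). The one that did not pass did so without control replicate 1 (0.0433).

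**Figure D2:**
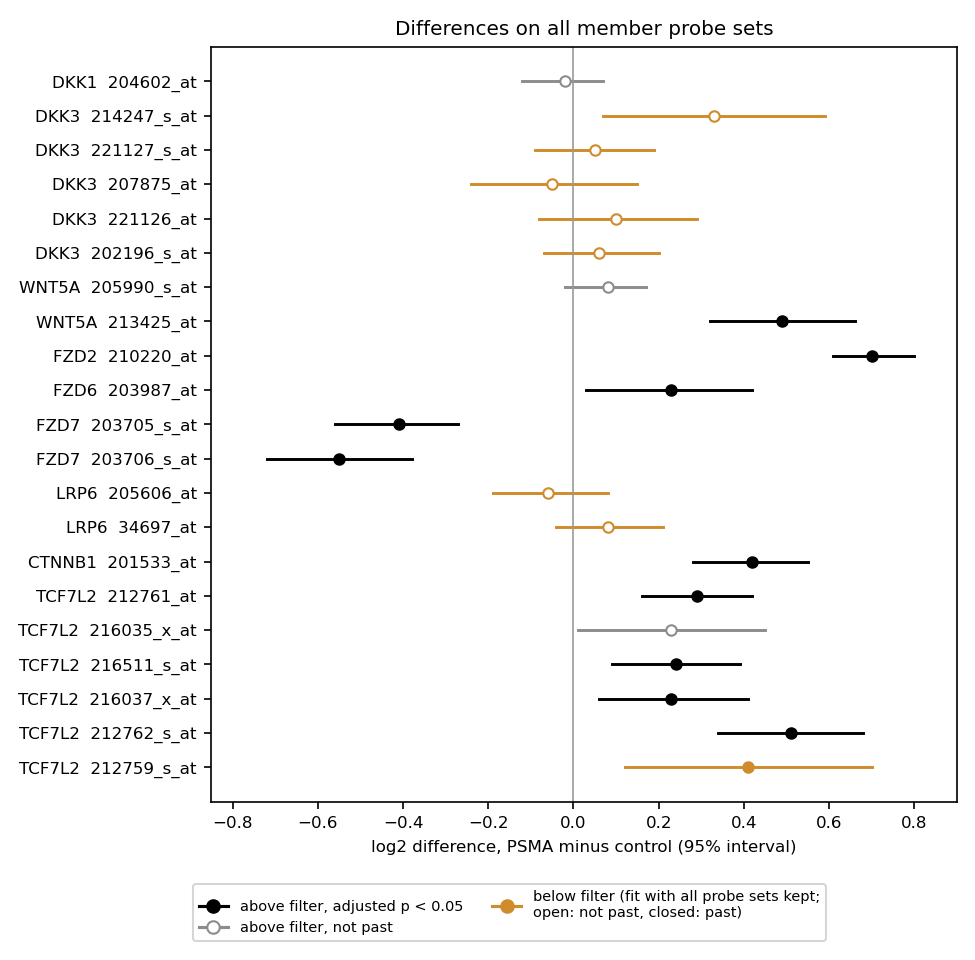
Log2 difference, PSMA minus control, with its 95% interval for each of the 21 probe sets (3 arrays per group). Black symbols were above the filter and past the threshold, and open grey ones were above the filter and not past. Orange symbols come from a fit with all probe sets kept (closed where past, open where not). FZD7 is to the left of 0 on both probe sets, TCF7L2 to the right on all 6, and the 2 WNT5A probe sets do not share an interval.

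Single arrays took the same place on many of these probe sets. Control replicate 3 was the lowest control array on 9 of the 13 tested probe sets, where it was the lowest on 43.5% of all tested probe sets. PSMA replicate 5 was the highest of its group on 7 of the 13, beside 29.4% of all. Control replicate 1 was the highest control array on 9 of the 13, beside 33.4% of all, and PSMA replicate 6 was the lowest of its group on 7, beside 34.2%. The 2 groups did not overlap on 12 of the 13, beside 67.3% of all tested probe sets. TCF7L2 gave more of the 13 than any other gene, and control replicate 3 was the lowest control array on each of its tested probe sets. Probe sets of 1 gene are not independent, so these counts are not of separate readings. Without control replicate 3, CTNNB1 still rose by 0.36 and TCF7L2 by 0.24 (limma adjusted p = 0.000527 and 0.00325).

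The genes beside each tested gene along its chromosome were read too. For each gene, the median log2 difference of the 7 tested genes on each side was taken in RefSeq order. For the 7 tested Wnt genes this median lay between -0.08 (FZD6) and 0.15 (FZD2). Over all 7033 genes placed, the 5th to 95th percentile of such medians was -0.32 to 0.40. FZD2 differed by 0.70 beside neighbours from -0.20 to 0.62, and FZD7 by -0.41 beside neighbours from -0.46 to 0.22. CTNNB1, at 0.42, had a neighbour median of 0.13, with 6 of 14 neighbours higher and 2 lower. DKK1 lay among genes that went both ways, 5 higher and 4 lower, with a median of 0.07. Over all genes, 30.1% were higher and 33.5% lower.

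**Figure D3:**
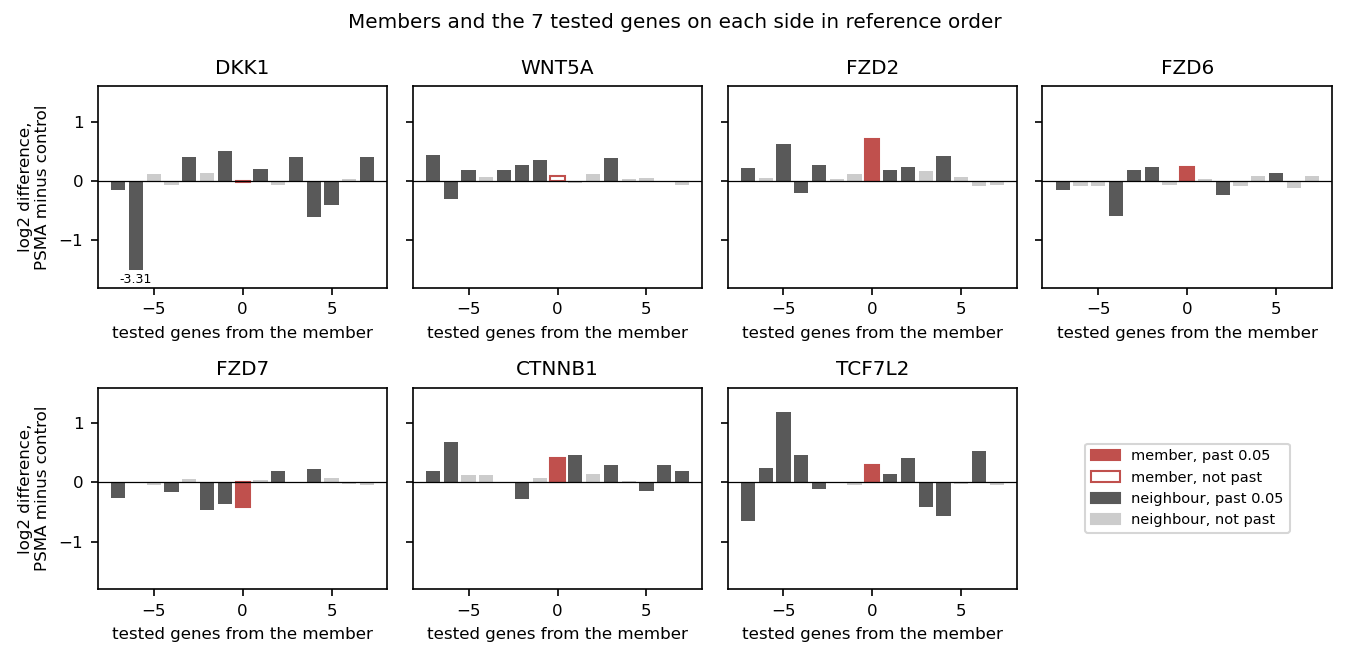
Log2 difference, PSMA minus control, of each tested Wnt gene (red, position 0) and of the 7 tested genes on each side of it in reference order (dark bars passed the threshold, light bars did not). A bar cut at the axis carries its value of -3.31. FZD2 and CTNNB1 have mostly positive neighbours, and DKK1 has neighbours of both signs.

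The rest of the pathway was read from lists ordered by role. Across the lists, 113 of 207 genes were tested, 40 rose and 24 fell, or 56.6% called beside 63.6% of all genes, with a median log2 difference of 0.02. Without the genes described above, 36 of 106 rose and 23 fell, with a median of 0.00. The share called in the pathway as a whole was thus near the background. Counts by list follow, to be read beside all genes, of which 30.1% were higher and 33.5% lower.

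Of 4 ligand genes tested, 1 rose. It was WNT7A, an epithelial Wnt ligand, which read 105.5, 121.9 and 139.2 on arrays labelled PSMA, against 58.9, 55.2 and 68.5 on arrays labelled control. The log2 difference of WNT7A was 1.0 (SE 0.109, limma adjusted p = 6.68e-05). WLS, the carrier that takes Wnt proteins to the cell surface, was the only gene tested of its list and did not pass (log2 difference -0.07, limma adjusted p = 0.393).

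Of 12 receptor and co-receptor genes tested, 3 rose, 3 fell and 6 did not pass. FZD4, a receptor for Norrin as well as Wnt ligands, read 251.1, 242.9 and 242.7 on arrays labelled PSMA and 147.3, 143.9 and 138.9 on arrays labelled control, a log2 difference of 0.78 (limma adjusted p = 1.43e-06). Its chromosomal neighbours ran from -0.58 to 0.26, with a median of -0.17. LGR4, a receptor for R-spondins, which strengthen Wnt signals, fell by 0.65, and the cell-surface proteoglycan gene GPC4 fell by 0.28, and by 0.46 on a second probe set. LGR4 lay among neighbours with a median of -0.55 and GPC4 among neighbours with a median of -0.28. LRP5, the other co-receptor, was picked out after values were seen and did not pass (log2 difference -0.02).

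Of 4 inhibitor genes tested, 1 fell. It was RNF43, which encodes a membrane ubiquitin ligase that removes Frizzled receptors and is itself switched on by Wnt signals. RNF43 read 41.7, 43.1 and 47.8 on arrays labelled PSMA, against 91.9, 88.5 and 96.0 on arrays labelled control. It fell by 1.06 on the log2 scale (SE 0.0606, limma adjusted p = 1.62e-06), beside neighbours with a median of 0.14, and passed the filter only through the control arrays.

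Of 22 genes of the cytoplasmic relay and destruction complex, 7 rose, 5 fell and 10 did not pass. The share called was 54.5%, beside 63.6% of all genes. PPP2R5E, a regulatory subunit of protein phosphatase 2A, rose most: it read 4227 ± 184.2 on arrays labelled PSMA and 1704 ± 42.0 on arrays labelled control (SD, n = 3 each). Its log2 difference of 1.31 stood beside neighbours with a median of 0.61, of which 11 of 14 rose and 0 fell (limma). Over all genes, 30.1% rose and 33.5% fell. TNKS, a tankyrase that marks axin for degradation, rose by 0.60. CSNK1E, a casein kinase that acts on Dishevelled, fell by 0.46, and FRAT2, which keeps GSK3 from the complex, fell by 0.33. Genes of the destruction complex picked out after values were seen went both ways. The kinase gene GSK3B and the scaffold gene APC fell by 0.16 and 0.28, and the scaffold gene AXIN1 rose by 0.17. The APC groups overlapped. By probe set with dim ones kept, GSK3B and AXIN1 did not pass (limma adjusted p = 0.092 and 0.106).

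Of 22 genes of beta-catenin and the nuclear factors, 10 rose, 0 fell and 12 did not pass (limma), with a median of 0.13. At an unadjusted p under 0.05, 11 were higher and 1 was lower. The share called was 45.5%, beside 63.6% of all genes (30.1% higher, 33.5% lower). TLE1, a Groucho corepressor that TCF factors recruit, rose by 0.62 (limma adjusted p = 6.61e-06) beside neighbours with a median of -0.32. CTNNBIP1, an inhibitor that blocks the binding of beta-catenin to TCF factors, had a difference of 0.53 beside a neighbour median of 0.28. Of the other corepressor genes, looked up after values were seen, TLE2 and TLE4 rose by 0.21 and 0.26. TLE3, TLE5, CTBP1 and CTBP2 did not pass. Some corepressors and an inhibitor were thus among the genes that rose, beside CTNNB1 and TCF7L2. The rest of the 10 were TBL1XR1, RUVBL1, RUVBL2 and XPO1, which rose by 0.43, 0.13, 0.19 and 0.23.

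Of 6 catenin and cadherin genes tested, 3 rose and 3 fell, so all of this short list were called, beside 63.6% of all genes. CDH11, a mesenchymal cadherin, read 2259.6, 2234 and 2216 on arrays labelled PSMA and 1170.4, 1115 and 1081 on arrays labelled control, a log2 difference of 1.0 (SE 0.0450, limma adjusted p = 4.58e-07). CTNNAL1, a relative of alpha-catenin, rose by 0.40. The cadherin genes CDH1 and CDH3 fell by 0.32 and 0.24, beside neighbours with medians of 0.26 and 0.32. CDH2, picked out after values were seen, rose by 0.26 (limma adjusted p = 0.00726). Of the cadherin genes, CDH1 and CDH3 thus fell while CDH2 and CDH11 rose.

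Of 21 genes known as targets of beta-catenin in various tissues, 6 rose, 7 fell and 8 did not pass, with a median of -0.02. The share called was 61.9%, beside 63.6% of all genes. BIRC5, an inhibitor of apoptosis also tied to mitosis, rose by 0.38, and the adhesion gene L1CAM rose by 0.29. L1CAM read 52.7 to 60.5 on arrays labelled control there, close to the filter at 52.5. A second L1CAM probe set, below the filter, had a difference of 0.08 (limma adjusted p = 0.704, all probe sets kept). VEGFA, an angiogenic factor with many other regulators, fell by 0.55 on its brightest probe set and by 0.35 and 0.29 on 2 others. RNF43, described above, is on this list too. MYC and CCND1, picked out after values were seen, did not pass (log2 differences 0.02 and -0.07). AXIN2 and 8 other genes of this list had no probe set of their own in the annotation used.

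Of 23 genes of the planar polarity and calcium branches, 10 rose, 6 fell and 7 did not pass, with a median of 0.14. The share called was 69.6%, beside 63.6% of all genes. PRKCA, a protein kinase C of the calcium branch, rose by 1.06 on its brightest probe set, which read 410.0, 425.4 and 437.8 on arrays labelled PSMA and 218.5, 189.8 and 202.0 on arrays labelled control. A second PRKCA probe set had a log2 difference of -0.06, and the average of the tested probe sets gave 0.50. NFAT5, listed only as a relative of the NFATC transcription factors, rose by 0.87 on its brightest probe set and by 0.35 on a second (limma adjusted p = 0.00839). Of those relatives, looked up after values were seen, NFATC3 rose by 0.34 and NFATC4 did not pass (log2 difference -0.17). The average of the NFAT5 probe sets gave 0.61. PPP3CC, a catalytic subunit of the phosphatase calcineurin, fell by 0.55. SCRIB, a polarity scaffold, fell by 0.37 beside neighbours with a median of -0.34. Of those neighbours, 12 of 14 fell, beside 33.5% of all genes.

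**Figure D4:**
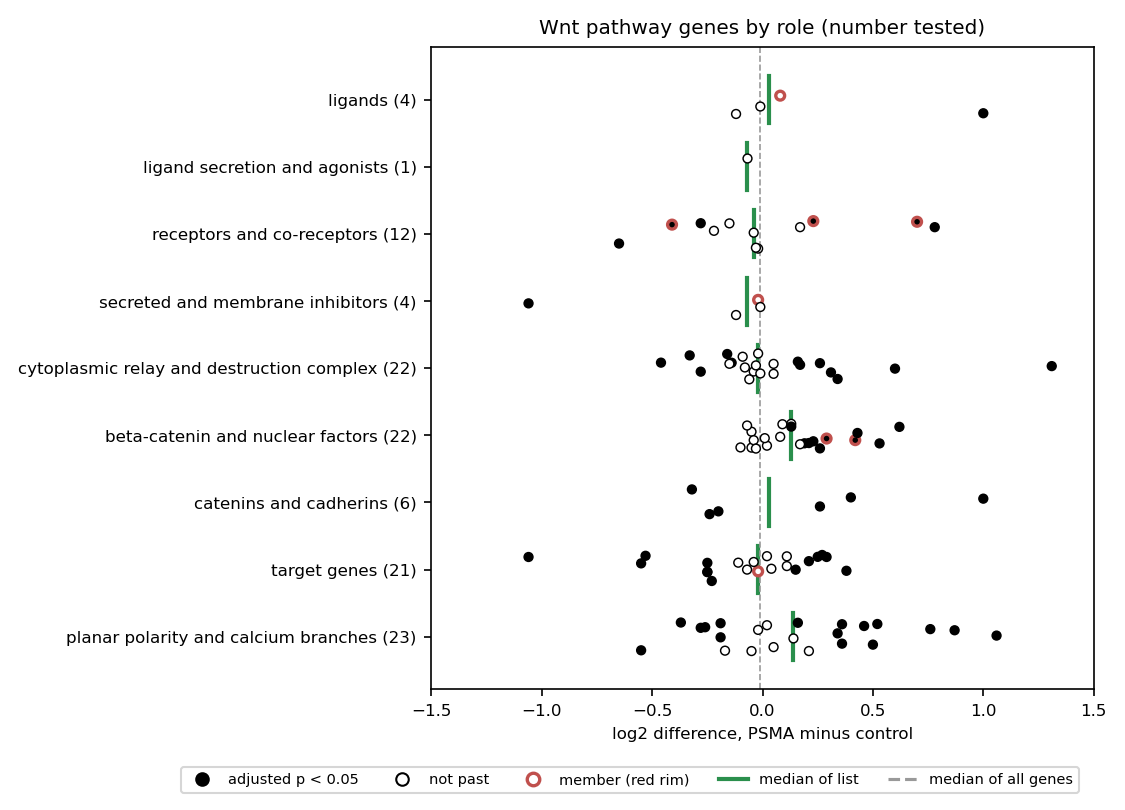
Log2 difference, PSMA minus control, of each tested gene in 9 lists of the Wnt pathway, with the number tested in brackets. Filled points passed an adjusted p of 0.05, red rims mark the genes this report describes, green bars are list medians and the dashed line is the median of all genes (-0.01). Filled points in the row of beta-catenin and nuclear factors all lie to the right of 0.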

How the data were processed

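The deposited values are intensities, 1 per probe set and array, made by the authors with GCRMA, per the submitters' processing notes. Its version, any later steps and the scale are not given in the sources used here. Values from 3.76 to 17455 were taken as linear. They were log2-transformed here with no pseudocount. Tests used no control probe sets (62) and kept a probe set only if 3 or more of the 6 arrays exceeded the overall median (52.5). A gene was read from the brightest probe set annotated to it alone, by mean log2 value. The SE and adjusted p of a tested gene come from a fit over genes. Those of further probe sets, FOLH1, cell type markers and genes below the filter come from fits over probe sets. Arrays labelled PSMA were compared with arrays labelled control in limma 3.58.1 (R 4.3.3, lmFit and eBayes), with two-sided p-values adjusted by Benjamini-Hochberg over all features. The code was tested on simulated data. Intervals (95%) are unadjusted and use the moderated variance. Precision is limited by 3 arrays per group. An exact permutation test of 3 against 3 cannot go below 0.1.

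Gene names came from the platform annotation, and neighbours and promoters from RefSeq (GRCh38.p14). The genes and lists were chosen with earlier results of these data known, and lists were described by counts and medians with no test. In each list, the rule named, among called genes with no overlap between groups, the 2 that rose most and the 2 that fell most, or else the brightest gene. It also named the 3 genes nearest in profile to the Wnt gene with the largest difference. Alternatives are given at the end.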

Additional observations from a re-analysis of the deposited data

How the results depend on the processing

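The alternatives were quantile normalization, median centring, no filter, a filter on the mean, the mean of a gene's probe sets, a pseudocount of 16, a floor at the 25th percentile (13), a trended robust variance, a minimum fold of 1.5, and leaving out each array. Of 749 recomputed results, 690 were classed as unchanged, which for a gene or probe set means the same direction and side of the threshold. The 749 also hold counts, classed as unchanged after small shifts, such as 10 to 7 called probe sets without PSMA replicate 5. Some genes enter both as a gene and by probe set. FZD2, FZD7, CTNNB1 and TCF7L2, as genes, passed under all alternatives except the minimum fold. With that minimum (limma treat), 526 genes, 6 pathway genes, 0 of the 7 tested Wnt genes and 0 of their probe sets passed. At an unadjusted p under 0.05 that test had 1 of the 7, FZD2 (adjusted p = 0.108). DKK1, not past the threshold under any alternative, had a log2 difference of 0.01 after quantile normalization, and WLS ran from -0.12 to 0.01 over the leave-one-out fits, with 0.01 without PSMA replicate 5. Over the leave-one-out fits, 4 to 5 Wnt genes, 7 to 11 of their probe sets and 56 to 64 pathway genes passed. The FOLH1 difference ran from -5.46 to -5.05 there and from -5.32 to -4.12 under the other alternatives. No paired analysis was possible because the groups share no replicate numbers. Dim probe sets limit what can be said of DKK3 and LRP6.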

Other observations

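Further genes of the pathway lists had signal below the filter on all their probe sets, and their values are given as such. In the fit with all probe sets kept, 12 of these 53 genes passed on their brightest probe set (22.6%), of which 8 were higher and 4 lower (limma). In that fit 32.0% of all probe sets passed, but these include the bright ones. It is thus not the share for dim probe sets, which was not counted. One of the 8 was CTNNA1, which PC3 is known to lack: its brightest probe set read 20.8 ± 0.620 on arrays labelled PSMA and 17.6 ± 1.43 on arrays labelled control (SD, n = 3 each, limma adjusted p = 0.0378). A gene known to be deleted was thus called at this level of signal, and the values of LEF1 and SOSTDC1 below lie within the range of the CTNNA1 probe sets, 5.73 to 21.5. The examples here were picked out after their values were seen. TCF7L1 and LEF1, the relatives of TCF7L2 that also bind beta-catenin, were both higher. TCF7L1 read 47.4, 35.4 and 51.0 on arrays labelled PSMA and 25, 19.3 and 24.1 on arrays labelled control (limma adjusted p = 0.00254). LEF1 read 16.5, 16 and 17.6 on arrays labelled PSMA and 12.3, 9.02 and 9.46 on arrays labelled control (limma adjusted p = 0.003), and its other 2 probe sets had log2 differences of -0.02 and -0.03 that were not past the threshold. The receptor gene FZD1 read 52.7 ± 2.75 on arrays labelled PSMA and 35.2 ± 3.60 on arrays labelled control (SD, n = 3 each, limma adjusted p = 0.00155). The secreted inhibitor gene SOSTDC1 read 12.6 ± 0.313 on arrays labelled PSMA and 20.0 ± 1.33 on arrays labelled control (SD, n = 3 each, limma adjusted p = 0.000247). The ligand gene WNT7B read 43.1 ± 2.09 on arrays labelled PSMA and 53.2 ± 2.30 on arrays labelled control (SD, n = 3 each, limma adjusted p = 0.0085).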
